A study of Mus musculus with 12 samples.

Results

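Mitosis and spindle checkpoint genes were followed in mouse splenic B cells that had been activated with LPS, a bacterial mitogen, and then exposed to a DNA-damaging drug. They are 48 protein-coding genes that drive chromosome condensation, spindle assembly, chromosome segregation and cytokinesis, without the cyclins, the polo-like kinases and the kinesins other than Cenpe. They were chosen by name, with earlier results of these data known, and each was found once among the 29486 genes of the deposited table. All 48 reached a normalized count of 10 in 1 or more conditions, as did 15583 of the 29486 genes.

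Total mRNA was sequenced from 12 libraries of B cells from mice of the strain C57BL/6Babr, 4 libraries in each of 3 conditions. LPS cells had 10 µg/ml LPS for 48 h. LPS+Etoposide cells then received 20 µM etoposide for 4 h, a topoisomerase II inhibitor that leaves DNA ends broken. LPS+KU55933+Etoposide cells had LPS for 47 h, then 10 µM KU55933, an inhibitor of the kinase ATM, for 1 h before the same etoposide treatment. All cells carried LPS, no group had KU55933 without etoposide, and for the LPS group the labels do not state if culture was prolonged by the 4 h of drug treatment. Each condition also had sequencing indexes of its own, so index and condition cannot be told apart.

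Cells enter mitosis when the kinase Cdk1 is released from inhibitory phosphorylation by phosphatases of the Cdc25 family, against the kinase Wee1. Condensin compacts the chromosomes, kinetochores built on centromeres bind the spindle, and the spindle checkpoint holds back the anaphase-promoting complex until every kinetochore is attached. The complex, with its activators Cdc20 and Fzr1, then marks securin and cyclin B for destruction, sister chromatids separate, and the central spindle directs cytokinesis. Activated B cells divide rapidly, and many mitotic genes are transcribed late in the cell cycle from promoters that hold a CHR (cell cycle genes homology region), bound by complexes of the MuvB core, often beside CCAAT boxes. In whole-culture RNA such as this, fewer cells in mitosis and less RNA per cell cannot be told apart.

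The deposited values bound what can be tested. Within a condition the 4 columns were exactly proportional over all genes, with log2 ratios that varied by at most 2.7e-14, which is what the fitted mean of the condition times a library size factor gives. Ube2c, an E2 ubiquitin-conjugating enzyme of the anaphase-promoting complex, shows the form of the data. Its deposited values were 1997, 2216, 2305 and 2077 in the LPS libraries, 479.0, 537, 650.2 and 520.4 in LPS+Etoposide, and 480.1, 541, 580.0 and 590 in LPS+KU55933+Etoposide. The spread within each condition is the size factor alone, and every other gene had the same spread. After removal of the size factors (0.8239 to 1.321) each gene therefore had 1 normalized count per condition, 2424, 492 and 525 for Ube2c, and this table left no spread between replicates from which to test. The statistics of the authors' own comparisons were not used here, and no test between conditions is given.

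Levels below are such normalized counts, and differences are log2 fold changes after adding a pseudocount of 1. A gene was called lower or higher when it differed at least 2-fold. The 95% intervals in brackets cover counting error only, from the reads expected over the 4 libraries, and are a lower limit of the true error. For the 48 genes their median half-width was 0.048 on the log2 scale for LPS+Etoposide against LPS (0.022 to 0.105). The totals of the deposited columns were 20400993 to 30575195 counts per library.

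Promoter sequences were read from RefSeq (GRCm38.p6) for 40 of the 48 genes, in 45 windows of 300 bases from 250 before to 50 after the transcription start. The stretches of 60 bases below come from the 10 genes with the lowest value with etoposide among those that had a CHR match within 50 bases of the start. Nearness to the start was a condition for being printed, so the stretches show the letters around the match and not how often a match lies near. Capitals mark CHR words (TTTGAA or TTCGAA, on either strand, so that TTCAAA is a match on the other strand) and CCAAT boxes (CCAAT or ATTGG). In Cdca8 a CHR and a CCAAT match overlap.
Ube2c: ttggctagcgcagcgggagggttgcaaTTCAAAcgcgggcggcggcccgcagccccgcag
Aurka: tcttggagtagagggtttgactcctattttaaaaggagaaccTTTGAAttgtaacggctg
Prc1: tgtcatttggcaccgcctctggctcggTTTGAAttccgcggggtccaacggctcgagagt
Cdc25b: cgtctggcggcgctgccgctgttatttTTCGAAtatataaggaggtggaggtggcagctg
Cenpf: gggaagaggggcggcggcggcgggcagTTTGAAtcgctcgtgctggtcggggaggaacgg
Racgap1: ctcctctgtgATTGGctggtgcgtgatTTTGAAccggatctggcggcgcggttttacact
Cdk1: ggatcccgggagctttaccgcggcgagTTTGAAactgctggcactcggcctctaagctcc
Anln: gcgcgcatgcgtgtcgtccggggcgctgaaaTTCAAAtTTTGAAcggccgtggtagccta
Hmmr: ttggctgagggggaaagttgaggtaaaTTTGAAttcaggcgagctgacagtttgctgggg
Cdca8: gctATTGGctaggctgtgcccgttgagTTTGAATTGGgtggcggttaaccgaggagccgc

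Their positions were, in the same order, chr2:164769873-164769932 (+ strand), chr2:172370521-172370580 (- strand), chr7:80294419-80294478 (+ strand), chr2:131186928-131186987 (+ strand), chr1:189688052-189688111 (- strand), chr15:99651619-99651678 (- strand), chr10:69352895-69352954 (- strand), chr9:22389157-22389216 (- strand), chr11:40733397-40733456 (- strand) and chr4:124936872-124936931 (- strand).

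The CHR words were present in 29 of the 45 windows (64.4%), against 19.2% of all 32851 RefSeq promoter windows and 14.1% of the windows of genes that passed the filter. Within 50 bases of the start the shares were 57.8% (26 of 45 windows), 5.31% and 3.57%. Overlapping windows of Bub3, Prc1 and Ect2 hold the same CHR matches. Counted by gene, 26 of 40 (65.0%) held a CHR word in any window, against 21.7% of all genes with a window and 16.5% of those that passed the filter. CCAAT boxes were in 77.8% of the windows, against 37.4% of all windows and 37.7% of those of genes that passed the filter, and both words stood together in 57.8% against 7.52% and 5.9%. An E2F word (TTTCCCGC, TTTCGCGC, TTTGCCGC or TTTGGCGC, either strand) was in 4 of the 45 windows (8.89%), those of Cdk1, Cdc25a, Ncapd2 and Ncapg, against 2.26% of all windows and 3.77% of those of genes that passed the filter. These shares describe letters in a window, and no test was run on them.

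**Figure D1:**
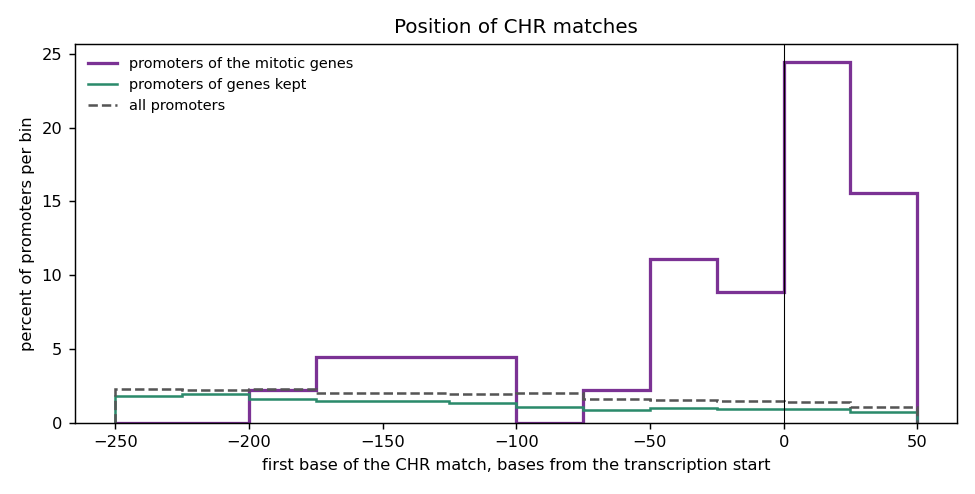
Position of CHR matches relative to the transcription start (x axis, bases, bins of 25) as a percent of promoter windows in each bin (y axis), for the 45 windows of the mitotic genes (purple), the windows of all genes that passed the filter (green) and all RefSeq windows (dashed grey). The mitotic genes lie above both backgrounds in every bin from 75 bases before the start to the window's end. Of their 35 matches 27 fall within 50 bases of the start, and matches in overlapping windows of Bub3, Prc1 and Ect2 are counted in each window.

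With etoposide, 20 of the 48 mitotic genes (41.7%) were at least 2-fold lower than with LPS alone, where 5.86% of all genes that passed the filter were that much lower. A single member, Spc25, was at least 2-fold higher, where 14.3% of all genes were. The median log2 fold change of the 48 genes was −0.89, which leaves a median of 54.1% of the LPS level, and that of all genes was −0.0081. The largest differences were in Ube2c, Nusap1, Aurka and Prc1, and they span ubiquitin transfer, spindle assembly and the central spindle. In all, 45 genes were below 0 and 3 above (Mad2l1, Pttg1 and Spc25), where 7895 of all 15583 genes were below and 7688 above. Under other scalings Mad2l1 crossed to −0.0086 (median-of-ratios factors), and Cdc25a and Cenpn crossed to 0.0096 and 0.077 (library totals).

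Levels per kilobase of exon, which allow comparison between genes, placed the 48 genes high in LPS-activated cells. Their median was 496 normalized counts per kb, at the 80.4th percentile of the genes that passed the filter, whose median was 127. The range ran from 85.1 per kb for Cenpk, a subunit of the inner kinetochore, to 2148 per kb for the condensin ATPase Smc4. The median was 273 per kb with etoposide (68.5th percentile) and 215 per kb with KU55933 and etoposide (62.7th percentile). Summed over the 48 genes, the normalized counts were 0.58% of all counts with LPS, 0.339% with etoposide and 0.274% with both drugs.

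**Figure D2:**
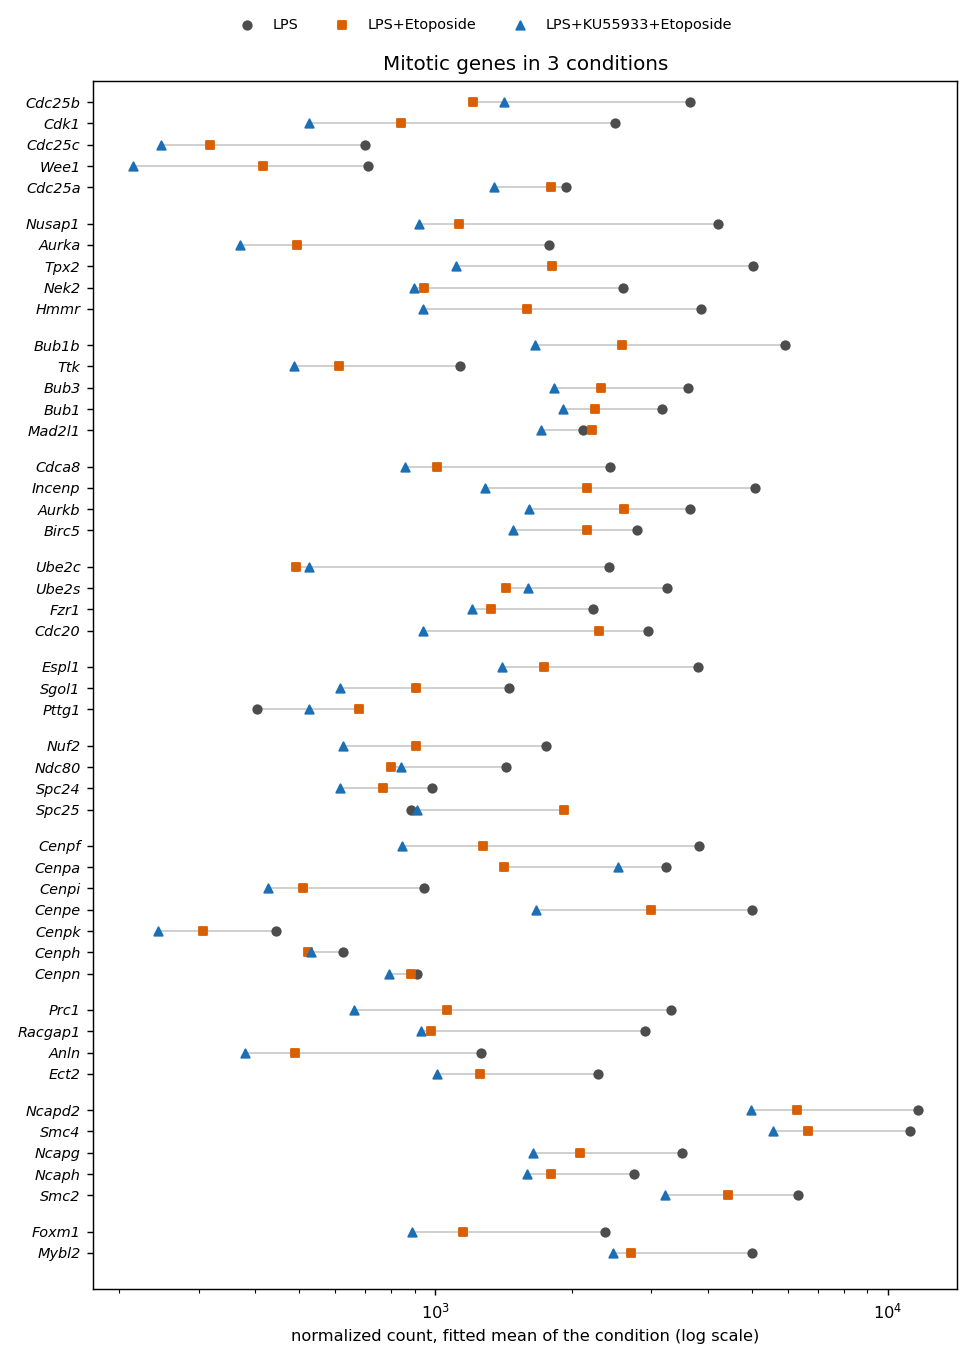
Normalized count (x axis, log scale) of each of the 48 genes (y axis, grouped by role) in LPS (grey circles), LPS+Etoposide (orange squares) and LPS+KU55933+Etoposide (blue triangles), 1 fitted mean per condition and no error bars because this table holds no replicate spread. The LPS point is the rightmost for every gene except Mad2l1, Pttg1 and Spc25.

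Among the kinases and phosphatases of mitotic entry, 3 of 5 were called lower with etoposide and the median was −1.13. Of all genes that passed the filter 5.86% were called lower, and this share applies to each role below. Cdk1 (chr10:69335146-69352938, GRCm38), the kinase that drives entry, had 2492 normalized counts with LPS, 841 with etoposide and 525 with both drugs. Against LPS, etoposide gave −1.57 [−1.62, −1.51], or 33.8% of the LPS level. Cdc25b, a phosphatase that starts Cdk1 activation, had 3654, 1209 and 1415. It was 3.02-fold lower with etoposide (−1.60 [−1.64, −1.55]). Cdc25c, another phosphatase of Cdk1, had 698, 318 and 248 normalized counts and stood at −1.13 with etoposide, although 10.2% of the 100-base stretches of its transcripts also occur in another gene.

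Cdc25a, the family member that also acts at the start of DNA replication, differed least of this role. It had 1946 normalized counts with LPS and 1802 with etoposide, 92.6% of the LPS level. Wee1, the kinase that restrains Cdk1, had 712, 415 and 214, and its value with etoposide was −0.78 [−0.86, −0.69], inside the 2-fold limit. With etoposide alone, Cdc25b, Cdc25c and their target Cdk1 were thus further below LPS than Wee1, by more than their counting intervals, and Cdc25a was less far below. With both drugs against LPS the order differed. Wee1 stood at −1.73, Cdc25b at −1.37, Cdc25c at −1.49, Cdc25a at −0.53 and Cdk1 at −2.24.

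The spindle pole and Aurora A role was the only one in which every member was called lower, 5 of 5, with a median of −1.47. Aurora A (Aurka, chr2:172356190-172370535) matures centrosomes and had 1783 normalized counts with LPS, 496 with etoposide and 370 with both drugs. That was −1.84 [−1.91, −1.77] with etoposide. Tpx2, which activates Aurora A on the spindle, had 5020, 1808 and 1112, or 36.0% of the LPS level with etoposide. Nusap1 binds spindle microtubules and had 4200, 1125 and 919 normalized counts. It was 3.73-fold lower with etoposide, and its promoter window held none of the CHR, CCAAT or E2F words. Nek2, which splits centrosomes, and Hmmr, a spindle-pole protein, were at 36.3% and 41.3% of LPS.

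Of the 5 spindle checkpoint genes only Bub1b was called lower, and the median was −0.64. Bub1b encodes BubR1, part of the mitotic checkpoint complex, and had 5931 normalized counts with LPS, 2579 with etoposide and 1662 with both drugs (−1.20 [−1.23, −1.17] with etoposide). Ttk, the Mps1 kinase that starts checkpoint signalling, stood at −0.89 and Bub3, the partner of Bub1 and BubR1, at −0.64. The kinase Bub1 had 3174 and 2251 normalized counts, 70.9% of LPS. Mad2l1 encodes Mad2, which binds and blocks Cdc20, and had 2117, 2219 and 1712. With etoposide it was at 105% of LPS, so Mad2l1 and Bub1b, whose products sit in 1 complex, were at different values by far more than the counting error.

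The chromosomal passenger complex, which corrects faulty spindle attachments, split in a similar way. Its scaffold Incenp had 5071 normalized counts with LPS, 2166 with etoposide and 1290 with both drugs, and was called lower with etoposide (−1.23 [−1.26, −1.19]). The subunit borealin (Cdca8) had 2427, 1009 and 856 and was also called lower (−1.27). The kinase Aurora B (Aurkb) had 3658, 2614 and 1610, and survivin (Birc5) had 2792, 2165 and 1486. Both stayed inside the 2-fold limit with etoposide, at −0.48 [−0.52, −0.45] and −0.37 [−0.41, −0.33].

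Regulators of the anaphase-promoting complex held the lowest of all 48 values and also 1 of the smaller ones. Ube2c (chr2:164769898-164778822) was 4.92-fold lower with etoposide (−2.30 [−2.37, −2.23]), at the 0.128th percentile of all genes that passed the filter. Exons of Tnnc2 on the opposite strand overlap 592 of its bases, and 6.16% of its 100-base stretches are shared. Ube2s, the E2 that extends the ubiquitin chains which Ube2c begins, had 3255, 1432 and 1601 normalized counts (−1.18). Fzr1 encodes Cdh1, the activator used in late mitosis and after it, and had 2225, 1324 and 1206 (−0.75).

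Cdc20 (chr4:118432901-118437352) is the activator that the spindle checkpoint blocks. Its deposited values were 2436, 2702, 2811 and 2533 in the LPS libraries, 2241, 2512, 3043 and 2435 in LPS+Etoposide, and 858, 968, 1037 and 1054 in LPS+KU55933+Etoposide. Without the size factors these are 2957, 2304 and 939. With etoposide Cdc20 was at 77.9% of LPS (−0.36 [−0.40, −0.32]), the least far from LPS of the 4 genes of this role. With KU55933 and etoposide it was at 40.7% of the level with etoposide (−1.29 [−1.35, −1.24]), the lowest of the 48 genes in that comparison.

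Of the 3 genes of sister chromatid separation, 2 were below LPS with etoposide and 1 was above. Separase (Espl1), the protease that cuts cohesin, had 3804 normalized counts with LPS, 1739 with etoposide and 1407 with both drugs, and was called lower (−1.13). Shugoshin (Sgol1), which protects centromeric cohesin, had 1455, 905 and 614 (−0.68). Securin (Pttg1, chr11:43420250-43426251), the inhibitor of separase, had 403, 680.0 and 526. It was at 169% of LPS with etoposide (0.75 [0.66, 0.84]) and remained at 130% with both drugs. The inhibitor and its protease therefore lay on opposite sides of the LPS level with etoposide.

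In the Ndc80 complex, the rod that couples kinetochores to microtubules, 1 subunit differed in direction from the other 3. The deposited values of Spc25 (chr2:69193895-69206194) were 729, 808, 841 and 758 in the LPS libraries, 1869, 2095, 2537 and 2031 in LPS+Etoposide, and 834, 940.0, 1007 and 1024 in LPS+KU55933+Etoposide. Without the size factors Spc25 had 884, 1921 and 912. It was at 217% of LPS with etoposide (1.12 [1.06, 1.18], 87.2th percentile of all genes) and at 103% with both drugs. Nuf2, Ndc80 and Spc24 had 1759, 1430 and 984 normalized counts with LPS and 908, 799 and 765 with etoposide. Their values were −0.95, −0.84 and −0.36, none of them at least 2-fold lower. Spc25 shared none of its 100-base stretches with another gene and overlapped no other gene's exons.

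The 7 centromere proteins had a median of −0.75, and 2 were called lower. Cenpf, a large protein of the outer kinetochore, had 3820 normalized counts with LPS, 1277 with etoposide and 843 with both drugs (−1.58). Cenpa, the histone H3 variant that marks centromeres, had deposited values of 2663, 2955, 3073 and 2769 in the LPS libraries, 1380.4, 1547, 1874 and 1500 in LPS+Etoposide, and 2317, 2613, 2799 and 2845 in LPS+KU55933+Etoposide. These reduce to 3232, 1419 and 2533, so that Cenpa was at 43.9% of LPS with etoposide and at 78.4% with both drugs. The inner kinetochore subunits Cenpi, Cenpk, Cenph and Cenpn stood at −0.89, −0.54, −0.25 and −0.04, and the kinesin Cenpe, which carries chromosomes to the spindle equator, had 5010, 2988 and 1668 normalized counts (−0.75).

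Central spindle and cytokinesis genes were among the lowest, with 3 of 4 called lower and a median of −1.47. Prc1, which bundles the central spindle, had 3316, 1062 and 663 normalized counts and was 3.12-fold lower with etoposide (−1.64 [−1.69, −1.59]). Racgap1, a subunit of centralspindlin, had 2911, 978 and 930.4 (−1.57), and Anln, which organises the contractile ring, had 1264, 489 and 381 (−1.37). Ect2, the exchange factor that switches on RhoA at the cell equator, had 2292, 1256 and 1009 and stayed inside the limit (−0.87).

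Condensin I, whose ATPases Smc2 and Smc4 also serve condensin II, had the narrowest range of the roles with 3 or more genes. Their 5 values with etoposide ran from −0.89 to −0.51, and 0 of 5 were called lower. With 5.86% of all genes called lower, 5 genes are too few to set a count of 0 apart from that share. Smc4 and Smc2 had 11192 and 6319.6 normalized counts with LPS and 6665 and 4436 with etoposide. The regulatory subunits Ncapd2, Ncapg and Ncaph had 11651, 3504 and 2751 with LPS and were at 54.0%, 59.7% and 65.5% of that with etoposide. Of the 2 transcription factors that drive late cell cycle genes, Foxm1 had 2367, 1151 and 889 normalized counts and was called lower (−1.04), and Mybl2, which encodes B-Myb, had 5005, 2709.5 and 2472 (−0.89). For Mybl2, 15.3% of the 100-base stretches also occur elsewhere, the highest share of the 48 genes.

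**Figure D3:**
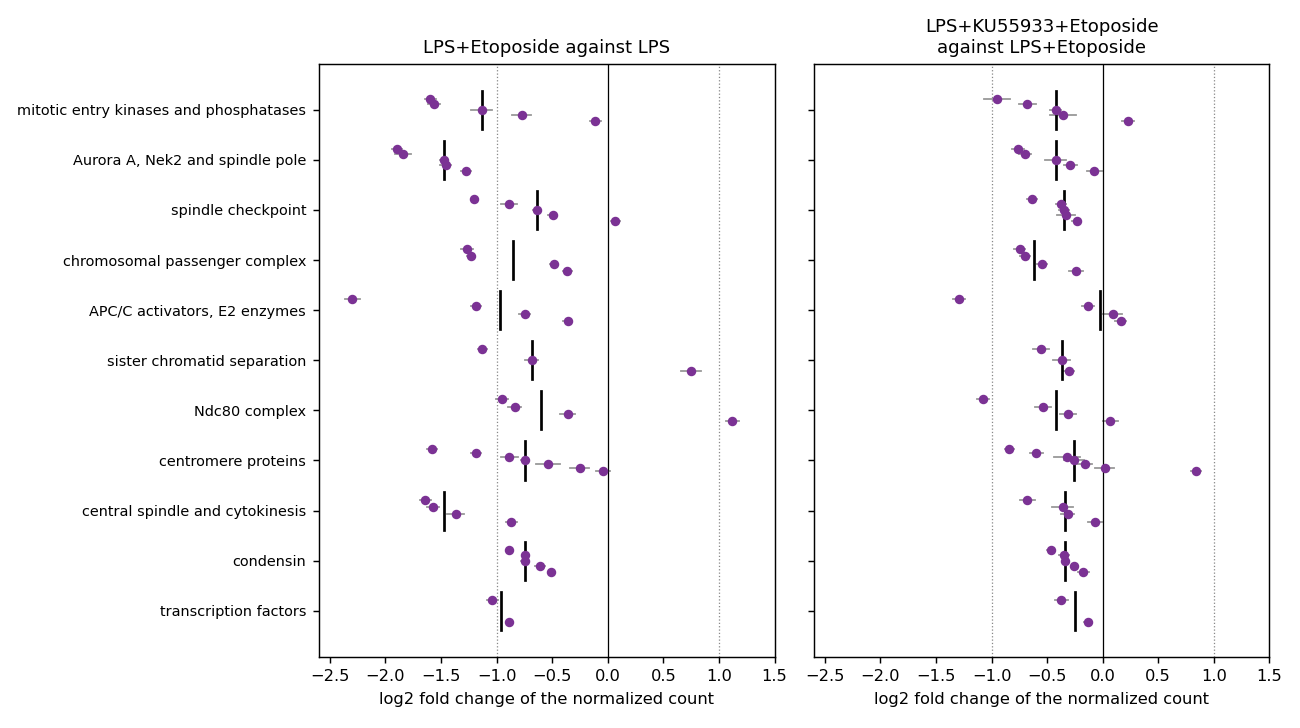
Log2 fold change of the normalized count (x axis) for each mitotic gene by role (y axis), in LPS+Etoposide against LPS (left) and LPS+KU55933+Etoposide against LPS+Etoposide (right). Grey bars are 95% counting intervals, black ticks are role medians and dotted lines mark 2-fold. In the left panel the 5 Aurora A and spindle pole genes all lie beyond 2-fold lower, and Spc25 is the single point beyond 2-fold higher.

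With KU55933 before etoposide, 42 of the 48 mitotic genes lay below their level with etoposide alone and 6 above it. Of all 15583 genes that passed the filter, 8646 lay below and 6937 above. In this comparison 2 of the 48 genes (4.17%) were at least 2-fold lower, Cdc20 and Spc25, where 4.68% of all genes were, a share near the background. None was at least 2-fold higher, where 1.71% of all genes were. The median was −0.35, against −0.048 for all genes. This comparison shares the LPS+Etoposide libraries with the one above, so only each gene's own values are set side by side.

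The 6 genes above 0 were Cenpa, Cdc25b, Ube2s, Ube2c, Ndc80 and Cenph. Cenpa stood apart at 0.84 [0.79, 0.88], or 179% of the level with etoposide. Cdc25b was at 117%, Ube2s at 112%, Ube2c at 107%, Ndc80 at 105% and Cenph at 101%, and the interval of Cenph included 0. Below 0, Wee1 (−0.95 [−1.07, −0.84]) and Cenpe (−0.84 [−0.88, −0.80]) came next after Cdc20 and Spc25. The kinase Wee1 had 415 normalized counts with etoposide and 214 with both drugs.

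By role, the median with KU55933 was lowest for the chromosomal passenger complex (−0.62) and nearest to 0 for regulators of the anaphase-promoting complex (−0.021). Aurora B, Incenp and survivin stood at −0.70, −0.75 and −0.54, and borealin at −0.24. The spindle checkpoint genes were all below 0, from −0.63 for Bub1b to −0.24 for Bub1, and Mad2l1, level with LPS under etoposide, was at 77.2% of that level. In the Aurora A role the values ran from −0.76 for Hmmr to −0.07 for Nek2, and in condensin from −0.47 for Smc2 to −0.17 for Ncaph.

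Promoter windows of the genes that the comparisons single out are printed whole. Cdc20 and Spc25 had the 2 lowest values and Cenpa the highest with KU55933 against etoposide alone, and Pttg1 and Mad2l1 are, with Spc25, the genes above LPS with etoposide. Capitals mark CHR words and CCAAT boxes as above, and each window runs from 250 bases before to 50 after the start in the direction of transcription.
Spc25: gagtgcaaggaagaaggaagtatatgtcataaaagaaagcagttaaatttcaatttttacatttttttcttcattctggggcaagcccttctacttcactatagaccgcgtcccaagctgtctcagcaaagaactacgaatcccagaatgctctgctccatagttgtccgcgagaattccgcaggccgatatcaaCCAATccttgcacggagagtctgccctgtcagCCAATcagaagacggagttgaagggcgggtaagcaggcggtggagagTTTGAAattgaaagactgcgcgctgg
Cdc20: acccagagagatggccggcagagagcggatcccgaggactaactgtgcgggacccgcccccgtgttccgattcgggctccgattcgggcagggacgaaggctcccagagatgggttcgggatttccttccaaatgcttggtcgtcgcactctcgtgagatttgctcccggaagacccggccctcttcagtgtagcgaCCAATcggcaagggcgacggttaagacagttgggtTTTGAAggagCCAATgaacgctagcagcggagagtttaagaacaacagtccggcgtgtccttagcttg
Cenpa: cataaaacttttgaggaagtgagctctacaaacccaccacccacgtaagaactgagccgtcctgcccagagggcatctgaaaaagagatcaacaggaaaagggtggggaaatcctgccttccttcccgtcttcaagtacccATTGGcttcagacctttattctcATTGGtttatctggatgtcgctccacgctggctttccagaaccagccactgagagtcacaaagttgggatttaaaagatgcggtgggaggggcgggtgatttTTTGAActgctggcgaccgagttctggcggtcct
Pttg1: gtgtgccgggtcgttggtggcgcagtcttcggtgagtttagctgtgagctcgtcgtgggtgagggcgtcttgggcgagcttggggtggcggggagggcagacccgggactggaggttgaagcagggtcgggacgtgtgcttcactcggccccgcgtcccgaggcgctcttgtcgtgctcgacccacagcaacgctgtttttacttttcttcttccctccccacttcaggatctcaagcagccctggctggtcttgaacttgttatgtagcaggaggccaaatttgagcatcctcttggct
Mad2l1: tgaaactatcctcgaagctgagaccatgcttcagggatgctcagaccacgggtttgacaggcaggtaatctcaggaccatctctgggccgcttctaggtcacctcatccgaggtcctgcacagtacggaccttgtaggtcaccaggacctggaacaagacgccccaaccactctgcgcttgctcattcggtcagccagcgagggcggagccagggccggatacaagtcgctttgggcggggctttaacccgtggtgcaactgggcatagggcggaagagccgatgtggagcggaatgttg

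These windows lie at chr2:69206164-69206463 (- strand, Spc25), chr4:118437294-118437593 (- strand, Cdc20), chr5:30666636-30666935 (+ strand, Cenpa), chr11:43425932-43426231 (- strand, Pttg1) and chr6:66534971-66535270 (+ strand, Mad2l1) in GRCm38.p6. The CHR match began 18 bases before the start in Cdc20, at base 25 after it in Spc25 and at base 17 after it in Cenpa, and each of the 3 windows also held 2 CCAAT boxes. With etoposide against LPS, Cdc20 stood at −0.36, Spc25 at 1.12 and Cenpa at −1.19, and a link between words and values was not tested. The windows of Pttg1 and Mad2l1 held no CHR, CCAAT or E2F word, and neither did those of Birc5, Mybl2, Ncaph, Nuf2 and Nusap1. RefSeq and GENCODE starts can differ, and the Pttg1 window lies wholly inside its GENCODE gene (chr11:43420250-43426251). Those of Mad2l1 and Mybl2 end before their GENCODE genes begin (at 66535390 and 163054687). For these 3 genes the lack of a word holds for the RefSeq window only, here and in the counts below. Of the 16 genes with a window that were called lower with etoposide, 14 (87.5%) held a CHR word, and of the other 24 genes 12 did. The median with etoposide was −1.16 for the 26 genes with a CHR word and −0.68 for the 14 without. No test was run on this difference, and the genes of either kind ranged widely, from −2.30 to 1.12 with the word and from −1.90 to 0.75 without it.

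With both drugs against LPS alone, 32 of the 48 genes (66.7%) were at least 2-fold lower and 0 at least 2-fold higher, where 5.97% and 11.1% of all genes were. The median was −1.22, or 42.8% of the LPS level, and that of all genes was 0.020. The lowest values were those of Prc1 (−2.32, 20.0% of LPS), Aurka (−2.27), Cdk1 (−2.24) and Ube2c (−2.21). Pttg1 at 0.38 and Spc25 at 0.04 were the 2 genes above 0, where 8018 of all 15583 genes were. Spc25 crossed to −0.0081 with median-of-ratios factors. The Aurora A role (median −2.17) and central spindle genes (median −1.69) lay furthest below LPS, with all 5 and all 4 members called lower.

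Several genes lay just inside or outside the limit against LPS. Smc4 at −1.003 and Mybl2 at −1.02 were called lower, and Bub3 at −0.98 and Smc2 at −0.98 were not. Condensin had 3 of 5 members called lower in this comparison (Ncapd2, Ncapg and Smc4), where 5.97% of all genes were. The centromere role had 3 of 7 (Cenpf, Cenpe and Cenpi), whereas Cenpn and Cenph remained at 86.7% and 84.9% of LPS.

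**Figure D4:**
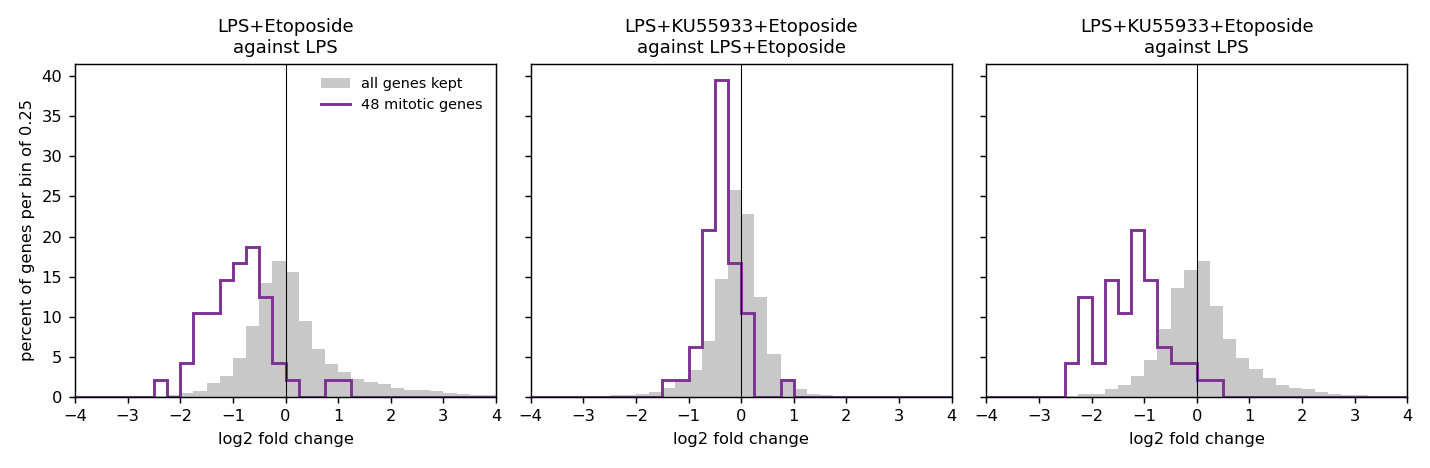
Percent of genes (y axis) per bin of 0.25 of the log2 fold change (x axis) for the 48 mitotic genes (purple line) and all 15583 genes that passed the filter (grey), in the 3 comparisons. The mitotic genes lie to the left of all genes in each panel, with medians of −0.89, −0.35 and −1.22 against −0.0081, −0.048 and 0.020.

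Other genes of the same processes, 112 in 7 lists, were taken to place these values. These lists too were chosen with earlier results of these data known, so their order is description only. With etoposide 17 of the 112 (15.2%) were called lower and 5 (4.46%) higher, where 5.86% and 14.3% of all genes that passed the filter were. Their median was −0.36. The same shares of all genes apply to each list below, and most lists are too short to set a count of 0 apart from them. The core subunits of the anaphase-promoting complex had 0 of 13 called either way and a median of −0.17. Their lowest and highest values were those of Cdc27 (−0.54) and Cdc23 (0.38), with Cdc26 (−0.49) and Anapc7 (0.29) next. Condensin II had 0 of 3 called, with Ncapg2 at −0.59, Ncaph2 at −0.28 and Ncapd3 at −0.23, against −0.74 for the median of condensin I.

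Cohesin and its regulators, which hold sister chromatids together until separase cuts them, had 2 of 14 called lower (Stag1 at −1.30 and Pds5a at −1.11) and a median of −0.42. Their highest values were those of the acetyltransferase Esco2 (0.55) and the loader subunit Mau2 (0.28). Of 29 other kinetochore and checkpoint genes 6 were called lower, among them Mad1l1, the Mad2 partner, at −1.34. Zwint and Dsn1 were the highest, at 0.46 and 0.35. Mitotic entry regulators outside the 48 had 2 of 11 called lower, Bora at −1.38 and Cks2 at −1.37, while Mastl, the Greatwall kinase, stood at 0.84 and Pkmyt1, a Wee1 relative, at 0.21.

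The list of other spindle and cytokinesis genes was the broadest, with 7 of 31 (22.6%) called lower and 4 (12.9%) higher. Of all genes that passed the filter 5.86% were called lower and 14.3% higher, so the share called higher was near that of all genes. Fam64a had 610.3 normalized counts with LPS and 112 with etoposide (−2.44), and Depdc1b had 383 and 95.1 (24.8% of LPS). Psrc1, a spindle protein and known p53 target, had 1065 and 5889 (2.47), and Gtse1, a microtubule-binding protein also known to respond to p53, had 1705 and 8751 (2.36). The augmin subunits Haus8 (1.88) and Haus2 (1.16) were the other two called higher and are named here after their values were seen. Against etoposide alone, 1 of the 112 (0.893%) was called lower with KU55933 and 0 higher, where 4.68% and 1.71% of all genes were. That gene was Mki67 (−1.08), which coats mitotic chromosomes and is also named after its value was seen.

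MuvB and DREAM subunits, parts of complexes that bind CHR promoters, had 0 of 11 called lower and 1 (9.09%) higher with etoposide. Of all genes 5.86% were called lower and 14.3% higher, and in 11 genes these counts are near those shares. Their median was −0.087. The pocket protein Rbl2 had 1881 normalized counts with LPS, 4095 with etoposide and 3166 with both drugs (1.12 with etoposide). E2f5 stood at 0.56, E2f4 at −0.68 and Rbbp4 at −0.37.

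**Figure D5:**
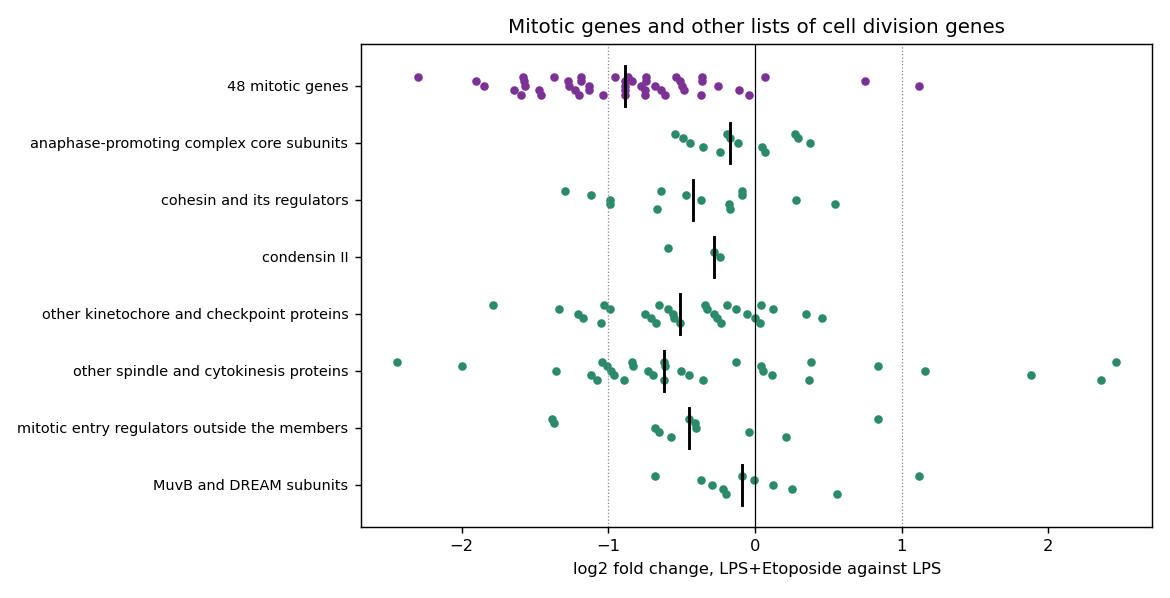
Log2 fold change with etoposide against LPS (x axis) for the 48 mitotic genes (purple) and the genes of 7 related lists (green), with list medians as black ticks and dotted lines at 2-fold. The mitotic genes have the lowest median (−0.89), a description only, since genes and lists were chosen with earlier results of these data known. The 4 points beyond 2-fold higher among other spindle genes are Psrc1, Gtse1, Haus8 and Haus2.

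B cell markers were the most abundant marker list in every condition, and they too were lower with etoposide. Their summed normalized count over 7 genes was 140052 with LPS, 76774 with etoposide and 85331 with both drugs. The median of the 7 was −0.67 with etoposide, with Cd22 at −2.49 (23923 to 4272) and Pax5 at −2.29 (5500.1 to 1121). All 7 were below 0, and 3 (42.9%) were called lower, where 5.86% of all genes were. Among the 48 mitotic genes that share was 41.7%. With both drugs against LPS 4 of the 7 were called lower, where 5.97% of all genes were. Markers of T cells summed to 8.12, 8.92 and 9.25, with 0 of 5 past the filter. Those of neutrophils summed to 2.42, 15.4 and 4.64, those of red blood cells to 70.2, 91.1 and 45.5, and those of macrophages to 414, 468 and 428. Of the 6 macrophage markers 3 were called higher with etoposide, where 14.3% of all genes were, and 2 were below 0. All of these sums were far below the level of a single B cell marker such as Cd79a. Their part in the mitotic values was not tested.

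Exons of 12 of the 48 genes overlap exons of a gene on the opposite strand and those of 2 (Ncapd2 and Foxm1) on the same strand, and the strand setting of the count is not given in the sources used here. Of the 48 genes 31 shared no 100-base stretch with another annotated gene, and 5 shared over 5% (Mybl2, Cdc25c, Ncapg, Prc1 and Ube2c).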

How the data were processed

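Total mRNA of the 12 libraries was sequenced by the authors with a stranded kit. They trimmed reads with Trim Galore and cutadapt 1.2.1, mapped them to GRCm38 with TopHat2 2.0.12, counted them with HTSeq and fitted DESeq2 1.6.3. The deposited table of the authors holds a signal, the fitted mean of each condition times the library size factor, and the authors' pooled mean signal over 12 libraries comes from a deposited comparison. The other deposited columns of the authors' comparisons (log2 fold change, its standard error, Wald statistic, p-value and adjusted p-value) were not used.

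Size factors were recovered by least squares from the pooled mean over 10866 genes with a pooled mean of at least 100, and the scaled mean was 0.98 to 1.003 of the pooled mean from the 1st to the 99th percentile of genes. Fold changes used a pseudocount of 1 and were computed on genes that reached a normalized count of 10 in any condition, and a call meant at least 2-fold. As this table holds no replicate spread, the tests planned for replicated values were not run. Intervals at 95% are Poisson and cover counting error only. Gene positions and exon lengths are from GENCODE M21 (99.5% of genes kept), promoters from RefSeq. Scripts in Python 3.11.15 (numpy 2.4.6, pandas 2.3.3, scipy 1.17.1, matplotlib 3.10.9) were tested on simulated data. Every member may be named, and of each related list the 2 lowest and 2 highest genes with etoposide, apart from 1 gene that is not reported here. Members and lists were chosen with earlier results of these data known.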

Additional observations from a re-analysis of the deposited data

How the results depend on the processing

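No paired analysis was possible because the columns of a condition are proportional, so a shared replicate number carries no deviation, and leaving out a library cannot change a scaled value. The median of the 48 genes with etoposide against LPS (−0.89) was −0.96 with median-of-ratios factors and −0.77 with library totals. With KU55933 against etoposide alone (−0.35) it was −0.29 with TMM factors, and with both drugs against LPS (−1.22) it was −1.05 with library totals. Library totals moved the median of all genes to 0.11 with etoposide and to 0.20 with both drugs against LPS. At a limit of 1.5-fold, 35 members were lower and 2 higher with etoposide, where 16.0% and 22% of all genes were. With KU55933 against etoposide alone 12 were lower and 1 higher, where 11.9% and 6.95% of all genes were. With a pseudocount of 0.5 or 5, without the filter, or with the filter at 50, all 144 member values stayed within their counting intervals, while 31, 65 and 117 of 144 lay outside with TMM factors, median-of-ratios factors and library totals. Leaving out the 5 of the 48 members with over 5% shared stretches was chosen after seeing the data. It left 17 of the remaining members lower with etoposide and 27 with both drugs against LPS, where 5.86% and 5.97% of all genes were. Depth sets the counting intervals, and the spread between replicates is not in the table used.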
